A study of Mus musculus with 6 samples.

Results

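Transcripts of the LRRK kinases and of 4 Rab GTPases that they phosphorylate were followed in the 4T1 mouse mammary carcinoma line and in its axitinib-resistant variant. The members were Lrrk2, its paralog Lrrk1 and the substrates Rab8a, Rab10, Rab12 and Rab29, which are 6 of the 53465 genes in the count table. Lrrk2 was chosen by its values: it was selected on having no count in the resistant line, so its levels are described here without a test. The other 5 members were taken for their link to LRRK2 and not for their own values. Earlier results of these data were known when they were chosen.

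LRRK2 is a large protein of the ROCO family that carries leucine-rich repeats, a GTPase domain and a kinase domain, and activating changes in it are a known cause of inherited Parkinson disease. It phosphorylates a group of Rab GTPases, the switches that mark the membranes of the cell, on a serine or threonine of the switch II loop. The phosphorylated Rabs bind other effectors and are handled differently by the proteins that load them onto and take them off membranes. Rab29 is a trans-Golgi Rab that can bring LRRK2 to membranes, Rab8a and Rab10 serve transport to the cell surface and the primary cilium, and Rab12 acts on endosomes and lysosomes. LRRK1 has a similar layout and is known to phosphorylate Rab7, the Rab of late endosomes. Among normal tissues, Lrrk2 is known for its transcript in lung alveolar type 2 cells, kidney and myeloid leukocytes.

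The parental line (P, 3 libraries) is 4T1, derived from a Balb/c mammary tumor, and the study calls its cells vehicle-treated. The resistant line (AxR, 3 libraries) was grown from metastases of 4T1 tumors in mice that received 100 mg/kg/day of axitinib, a drug that blocks VEGF receptors, and was kept in 0.5 μM axitinib for more than 2 months. The treatment label names axitinib for AxR only, although the growth text shared by all 6 libraries names the drug too. AxR is a single derived line, so the drug, the passage through a mouse and the selection of cells cannot be told apart.

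Poly(A) RNA was sequenced to between 15495260 and 17294525 estimated counts per library. Levels are given as CPM, the counts a gene would have in a library of 1000000, with library sizes scaled by their upper quartiles. Epithelial markers were present in both lines, with 9 of 9 tested and a summed level of 2338 to 2568 CPM in P and 3535 to 3668 CPM in AxR. The sum mixes directions: by the test described below, 6 were higher in AxR and 3 (Krt19, Cldn3 and Cldn4) were lower. Over all genes tested, 63.5% passed in either direction. Leukocyte markers were near 0 in both, with 6 of 12 at no count and a summed level of 0.326 to 0.520 CPM in P and 0.398 to 0.572 CPM in AxR. Endothelial markers summed to at most 0.635 CPM in any library and fibroblast markers to at most 1.02 CPM. Nothing in the labels says that the 3 libraries of a line came from separate cultures, so p-values measure the spread between these libraries only.

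The expected position of the site that LRRK2 phosphorylates was marked by the same rule in all 4 Rabs. It was found in the coding sequence as the codon next but 1 after the phenylalanine that closes the conserved switch II stretch (aspartate, any residue, alanine, glycine, glutamine, glutamate, arginine or lysine, and phenylalanine or tyrosine). The stretches below are shown because a LRRK site in this loop is what links the 4 genes to the LRRK kinases. The marked codon does not set them apart, since the same search also found one in the 11 other Rab substrates listed further below. Each stretch holds 45 bases of coding sequence from GENCODE M21 transcripts on GRCm38, read 5′ to 3′ along the gene, with the codon at this position in capitals.
Rab8a: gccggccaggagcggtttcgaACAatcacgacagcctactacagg
Rab10: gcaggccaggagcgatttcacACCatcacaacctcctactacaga
Rab12: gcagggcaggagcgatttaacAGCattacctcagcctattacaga
Rab29: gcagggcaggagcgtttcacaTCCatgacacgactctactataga
The codon encodes threonine in Rab8a (T72, exon 3, chr8:72171268-72171270) and in Rab10 (T73, exon 3, chr12:3256975-3256977). It encodes serine in Rab12 (S105, exon 3, chr17:66500418-66500420) and in Rab29 (S72, exon 4, chr1:131870697-131870699). In Rab29 the codon just before the marked one, aca, encodes threonine, and which of these residues is phosphorylated was not tested. Over these 15 codons, Rab10 differed from Rab8a at 2 residues and 9 bases, Rab12 at 3 residues and 13 bases, and Rab29 at 5 residues and 16 bases. Rab3a, Rab3b, Rab3c and Rab3d, which are not members, each differed from Rab8a at only 1 residue. Rab8b, the paralog of Rab8a, encoded the same 15 residues with 9 bases changed, and its stretch is given for comparison because its transcript changed while that of Rab8a did not pass the test.
Rab8b: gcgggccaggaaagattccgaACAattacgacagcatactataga

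Lrrk2 (ENSMUSG00000036273.15, chr15:91673175-91816120, plus strand, GRCm38) was counted in every P library and in no AxR library. Per kilobase of exons, 30.9% of the tested genes had a lower level in P. The estimated counts of Lrrk2 were 560, 557 and 452 in P replicates 1, 2 and 3, and 0 in each AxR library. In P these were 34.0, 32.2 and 29.5 CPM, with a mean of 31.9 ± 2.30 CPM (SD, n = 3). The 3 P libraries lay close together and every AxR library was empty for the gene. A count of 0 allows up to 3 counts, or 0.171 to 0.191 CPM in the AxR libraries, so Lrrk2 was at least 163-fold lower in AxR when set against the highest floor of any library, 0.196 CPM. These floors cover counting error only, and in bulk RNA fewer cells with a transcript and less transcript per cell cannot be told apart.

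The rule looked for genes without a count in AxR, and these values describe where Lrrk2 stood among them. Of 32 tested genes without a count in AxR, Lrrk2 had the highest level in P in CPM, which is not scaled by gene length. Per kilobase of exons, Hexa, also without a count in AxR, stood higher in P, at 9.07 CPM against 2.70 CPM. Of the 6133 tested genes with a P level in CPM at or above that of Lrrk2, Lrrk2 alone had at most 3 counts in each AxR library. By level per kilobase it does not stand alone. Parvb also lay above it in P, at 4.09 CPM per kilobase, and had 1, 3 and 0 counts in AxR. Just outside the rule, Hhip, a binding protein of hedgehog ligands, had 35.8, 35.8 and 35.6 CPM in P and 4, 0 and 1 counts in AxR. Mal2, a membrane protein of epithelial transcytosis, had 61.0, 53.2 and 65.5 CPM in P and 1, 1 and 6 counts in AxR. The next gene, the pseudogene Rps6-ps1, had 75 counts over the AxR libraries.

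The genes whose pattern over the 6 libraries was most like that of Lrrk2, by Euclidean distance in log2(CPM + 0.5), were Hhip at a distance of 0.69, Hexa at 1.41, Parvb at 1.48, Abcg2 at 1.50 and Sox12 at 1.57. Hexa, a subunit of the lysosomal enzyme hexosaminidase A, had 18.2, 16.6 and 19.5 CPM in P and no count in AxR. Like Lrrk2 itself, these genes are found by a search on the same contrast, and their values are a description.

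**Figure D1:**
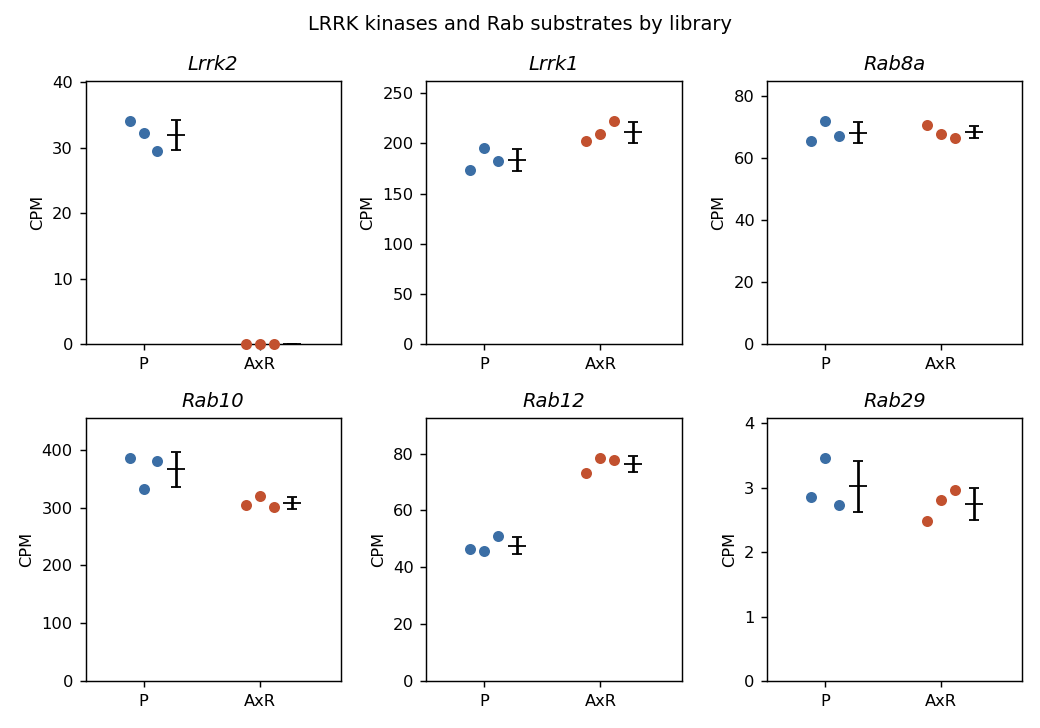
Level of each member in each library, in CPM on linear axes that start at 0; points from left to right are replicates 1 to 3 of P (blue) and AxR (red), and the bar beside them is the mean with its SD (n = 3). Lrrk2 is at 0 in all AxR libraries, Rab12 lies higher in AxR (76.5 against 47.7 CPM), Lrrk1 and Rab10 differ by less, and the points of Rab8a and Rab29 overlap.

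Of the tissues named above for Lrrk2, markers were read for alveolar type 2 cells and leukocytes, and not for kidney. The surfactant genes of alveolar type 2 cells (Sftpc, Sftpb, Sftpa1 and Sftpd) never exceeded 3 counts in a library. The summed level of the 7 alveolar markers, 89.1 to 100.1 CPM in P and 91.3 to 98.8 CPM in AxR, came almost wholly from Abca3, a lipid transporter that had 94.4 CPM in P and 95.2 CPM in AxR. Among leukocyte markers, Tyrobp, Fcer1g and Adgre1 had no count in any library and Ptprc had at most 2 counts.

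The surroundings of Lrrk2 were mostly silent in both lines. Within 1 Mb lie 18 other annotated genes, of which 8 are protein-coding and 13 had no count in any library. The nearest protein-coding neighbors, Smgc at 22 kb and Slc2a13 at 100 kb, had no count in either line, and neither had Abcd2, CN725425 and Pdzrn4. Cntn1, at 235 kb, had 1, 2 and 2 counts in P and 0 in AxR, which is at the floor in both. No gene nearer than Kif21a, at 623 kb, could be tested.

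Only 2 protein-coding neighbors were tested, and they moved in opposite directions. Kif21a, a kinesin 623 kb away, had 51.1, 47.9 and 49.9 CPM in P and 31.1, 28.1 and 28.8 CPM in AxR, a log2 fold change of -0.76 (SE 0.067, adjusted p = 1.257e-07 by edgeR's quasi-likelihood test, Benjamini-Hochberg adjusted). Cpne8, a copine 994 kb away, had 39.1, 37.5 and 44.2 CPM in P and 68.3, 71.4 and 64.1 CPM in AxR, a log2 fold change of 0.75 (SE 0.071, adjusted p = 2.428e-07 by the same test). The other 526 tested genes of chromosome 15 had a median log2 fold change of 0.12. For 10 tested neighbors of Lrrk2, between 90224311 and 93595891 on the chromosome, it was 0.027. Both are close to or above 0.

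**Figure D2:**
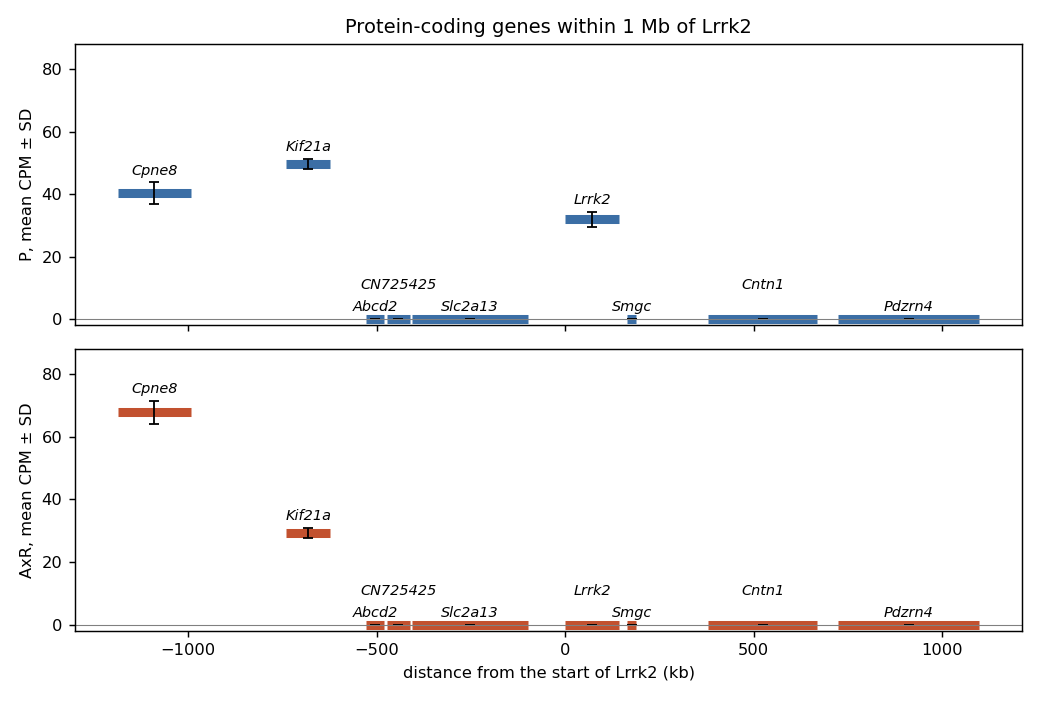
Mean level (CPM ± SD, n = 3) of Lrrk2 and of the protein-coding genes within 1 Mb, drawn over the length of each gene against the distance from the start of Lrrk2 in kb, for P (upper panel) and AxR (lower panel). Lrrk2 drops from 31.9 CPM to 0, Kif21a is lower and Cpne8 higher in AxR, and all other genes drawn are at or near 0 in both lines.

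All 5 other members passed the filter on low counts and were tested among 13550 genes with edgeR's quasi-likelihood test at a Benjamini-Hochberg adjusted p of 0.05. Lrrk1 and Rab12 rose, Rab10 fell, and Rab8a and Rab29 did not pass. These lines differed widely: 63.5% of all genes tested passed, 32.8% higher and 30.8% lower in AxR, so 3 of 5 members is a share near that of all genes. The libraries of P and AxR did not overlap for 3 of the 5 members, against 68.3% of the genes tested. With 3 libraries against 3, an exact two-sided permutation test cannot go below p = 0.1, and it gave that value for Lrrk1, Rab10 and Rab12.

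Lrrk1 (ENSMUSG00000015133.17, chr7:66226912-66388350, minus strand), the paralog of Lrrk2, was present in every library. Its levels were 173, 195 and 182 CPM in P and 202, 209 and 222 CPM in AxR, and the lowest AxR library lay above the highest P library. The mean rose from 184 ± 11.1 to 211 ± 10.2 CPM (SD, n = 3 each), by 14.9%. The log2 fold change was 0.20 (SE 0.056, 95% confidence interval 0.080 to 0.32, adjusted p = 0.00576 by edgeR's quasi-likelihood test). It rested on 2795 to 3902 counts per library. Of 4 genes annotated over Lrrk1, 3 had no count and the antisense Gm44752 had 0.631 CPM in P and 0.876 CPM in AxR.

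Rab12 (ENSMUSG00000023460.12, chr17:66494512-66519729, minus strand) showed the widest change among the tested members. It had 46.3, 45.7 and 50.9 CPM in P and 73.2, 78.5 and 77.7 CPM in AxR, with a gap between the lines that was far larger than the spread within either. The mean rose from 47.7 ± 2.84 to 76.5 ± 2.84 CPM (SD, n = 3 each), or 1.61-fold. The log2 fold change was 0.68 (SE 0.061, 95% confidence interval 0.55 to 0.81, adjusted p = 1.448e-07 by edgeR's quasi-likelihood test).

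Rab10 (ENSMUSG00000020671.9, chr12:3247428-3309969, minus strand) fell modestly. It had 386, 332 and 381 CPM in P and 305, 320 and 301 CPM in AxR, and P replicate 2 lay nearest to the AxR libraries. The mean changed from 366 ± 30.1 to 309 ± 10.4 CPM (SD, n = 3 each), a difference of -15.7%. The log2 fold change was -0.25 (SE 0.058, 95% confidence interval -0.37 to -0.12, adjusted p = 0.00174 by edgeR's quasi-likelihood test). Rab10 was the only member whose estimated counts were not whole numbers, in all 6 libraries, and such values arise where RSEM divides reads among genes. It also overlaps the antisense gene Rab10os, which had 14.8 CPM in P and 11.6 CPM in AxR. The strand setting of the counting was not given in the sources used here, and the part of shared reads in the change of Rab10 was not tested.

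Rab8a (ENSMUSG00000003037.16, chr8:72161200-72183904, plus strand) had almost the same mean in both lines. Its levels were 65.5, 72.0 and 67.2 CPM in P and 70.6, 68.0 and 66.7 CPM in AxR, and the libraries of the lines overlapped. The means were 68.2 ± 3.39 and 68.4 ± 1.98 CPM (SD, n = 3 each). The log2 fold change was 0.0043 (SE 0.057, adjusted p = 0.953 by edgeR's quasi-likelihood test), with a 95% confidence interval from -0.12 to 0.13. Its sign turned under other scalings and when single libraries were left out.

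Rab29 (ENSMUSG00000026433.13, chr1:131867224-131872887, plus strand), the Rab that can recruit LRRK2, was scarce. It had 47, 60 and 42 counts in P and 39, 44 and 52 counts in AxR, or 2.86, 3.46 and 2.74 CPM against 2.48, 2.81 and 2.96 CPM. The libraries of the lines overlapped. The log2 fold change was -0.14 (SE 0.19, adjusted p = 0.540 by edgeR's quasi-likelihood test). The 95% confidence interval, -0.54 to 0.26, was the widest among the tested members.

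Neighboring genes moved to different extents around the members. The median log2 fold change of 10 tested neighbors was 0.27 around Lrrk1, 0.14 around Rab12, -0.43 around Rab8a and -0.52 around Rab29. That of 6 tested neighbors around Rab10, close to the end of its chromosome and with the overlapping antisense Rab10os among them, was 0.33. For all other tested genes of the chromosome it was 0.18 for Lrrk1, 0.17 for Rab12, -0.18 for Rab8a, 0.0058 for Rab10 and -0.29 for Rab29. Over all 13550 genes it was 0.0058. Rab12 rose by more than the medians around it, Lrrk1, at 0.20, lay between its neighbors and its chromosome, and Rab10 fell where the median around it was above 0. Whether the surroundings had a part in the level of a member was not tested.

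Levels of different genes were compared per kilobase of merged exons. Rab10 was by far the most abundant member, with 104 ± 8.57 CPM per kb in P and 87.9 ± 2.96 in AxR (SD, n = 3). Lrrk1 followed in P with 17.8 ± 1.08 CPM per kb, then Rab12 with 15.7 ± 0.938 and Rab8a with 14.6 ± 0.725, which changed places between P libraries. Lrrk2, at 2.70 ± 0.194 CPM per kb, lay above Rab29, at 2.06 ± 0.265, in each P library. In P, Lrrk1 was therefore 5.84, 6.98 and 7.10 times as abundant per kb as Lrrk2 in replicates 1, 2 and 3. In every AxR library the order was Rab10, Rab12 (25.2 ± 0.935), Lrrk1 (20.5 ± 0.991), Rab8a (14.6 ± 0.424), Rab29 (1.87 ± 0.168) and Lrrk2 at 0, in CPM per kb, so Rab12 had moved above Lrrk1.

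The makeup of the 4 Rabs shifted from Rab10 toward Rab12. Rab10 held 77.9%, 74.2% and 76.7% of their summed level per kb in P and 68.0%, 68.3% and 67.2% in AxR. Rab12 held 10.8%, 11.9% and 11.9% in P and 18.9%, 19.4% and 20.1% in AxR. The ratio of Rab10 to Rab12 per kb went from 6.64 ± 0.494 to 3.49 ± 0.129 (SD, n = 3 each), without overlap (exact permutation test, two-sided p = 0.1, the smallest that 3 against 3 allows). The summed level of the 4 was 137 ± 8.14 CPM per kb in P and 130 ± 3.41 in AxR, and overlapped between the lines (exact permutation test, two-sided p = 0.4).

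The close paralogs Rab8a and Rab8b diverged between the lines. Rab8b had 90.1, 80.4 and 85.9 CPM in P and 50.4, 48.0 and 48.6 CPM in AxR, a log2 fold change of -0.80 (SE 0.059, adjusted p = 1.827e-08 by edgeR's quasi-likelihood test). Per kb, Rab8a stood at 0.735, 0.906 and 0.791 times Rab8b in P and at 1.42, 1.43 and 1.39 times Rab8b in AxR. By this measure the higher Rab8 transcript was Rab8b in each P library and Rab8a in each AxR library (exact permutation test of the ratio, two-sided p = 0.1). The exon lengths merge all annotated transcripts, so which gene stands higher depends on them. A fixed length cancels in the change of the ratio between the lines. This pair was compared after its values had been seen.

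The wider pathway was read from 9 lists of 62 genes, of which 58 were tested, 16 rose, 26 fell and 16 did not pass. That is 72.4% of the tested genes, beside 63.5% of all genes, and their median log2 fold change was -0.11, beside 0.0058 over all genes. These shares count either direction. Over all genes tested, 32.8% were higher and 30.8% lower in AxR. Adjusted p-values in the following account were taken from the edgeR fit of all 13550 genes.

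Of 11 other Rabs that LRRK kinases are known or reported to phosphorylate, 9 were tested, 3 rose, 4 fell and 2 did not pass. The share that passed was 77.8%, beside 63.5% of all genes. Rab3d, a Rab of secretory granules, rose from 10.1 ± 1.04 to 23.9 ± 1.54 CPM (log2 fold change 1.25, SE 0.095, adjusted p = 2.373e-08 by edgeR). Rab5c, a Rab of early endosomes, rose from 77.8 ± 1.60 to 115 ± 3.49 CPM (0.56, SE 0.052, adjusted p = 1.915e-07 by edgeR). Rab8b fell, as given above, and Rab3a, a Rab of synaptic vesicles, fell from the low level of 1.69 ± 0.685 to 0.952 ± 0.164 CPM (-0.81, SE 0.32, adjusted p = 0.0407 by edgeR). Rab7, the substrate of LRRK1, rose from 218 ± 1.85 to 250 ± 4.88 CPM (0.20, SE 0.045, adjusted p = 0.0014 by edgeR). Rab7 is named after its values were seen.

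Of 5 phospho-Rab effectors, which read the phosphorylated Rabs, 3 fell and 2 did not pass. The share that passed, 60.0%, is near the 63.5% of all genes that passed in either direction. Those lower in AxR were 30.8% of all genes. Rilpl1, which binds phosphorylated Rab8a and Rab10 at the centrosome, fell from 4.99 ± 1.11 to 2.41 ± 0.138 CPM (log2 fold change -1.05, SE 0.19, adjusted p = 0.000221 by edgeR). Myo5a, a myosin motor, fell from 341 ± 13.5 to 233 ± 13.8 CPM (-0.55, SE 0.053, adjusted p = 3.742e-07 by edgeR). The third was Mapk8ip3, which encodes the motor adaptor JIP3, at -0.43 on the log2 scale.

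The phosphatases that act on the Rabs split by gene. Ppm1h, which removes the LRRK2 mark from Rab8a and Rab10, rose from 11.1 ± 0.416 to 19.5 ± 0.474 CPM (log2 fold change 0.81, SE 0.084, adjusted p = 7.205e-07 by edgeR). Its relative Ppm1m fell from 18.4 ± 1.57 to 12.1 ± 0.660 CPM (-0.61, SE 0.093, adjusted p = 3.776e-05 by edgeR). The remaining relative, Ppm1j, did not pass, with 11.5 ± 1.36 and 11.4 ± 0.585 CPM.

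**Figure D3:**
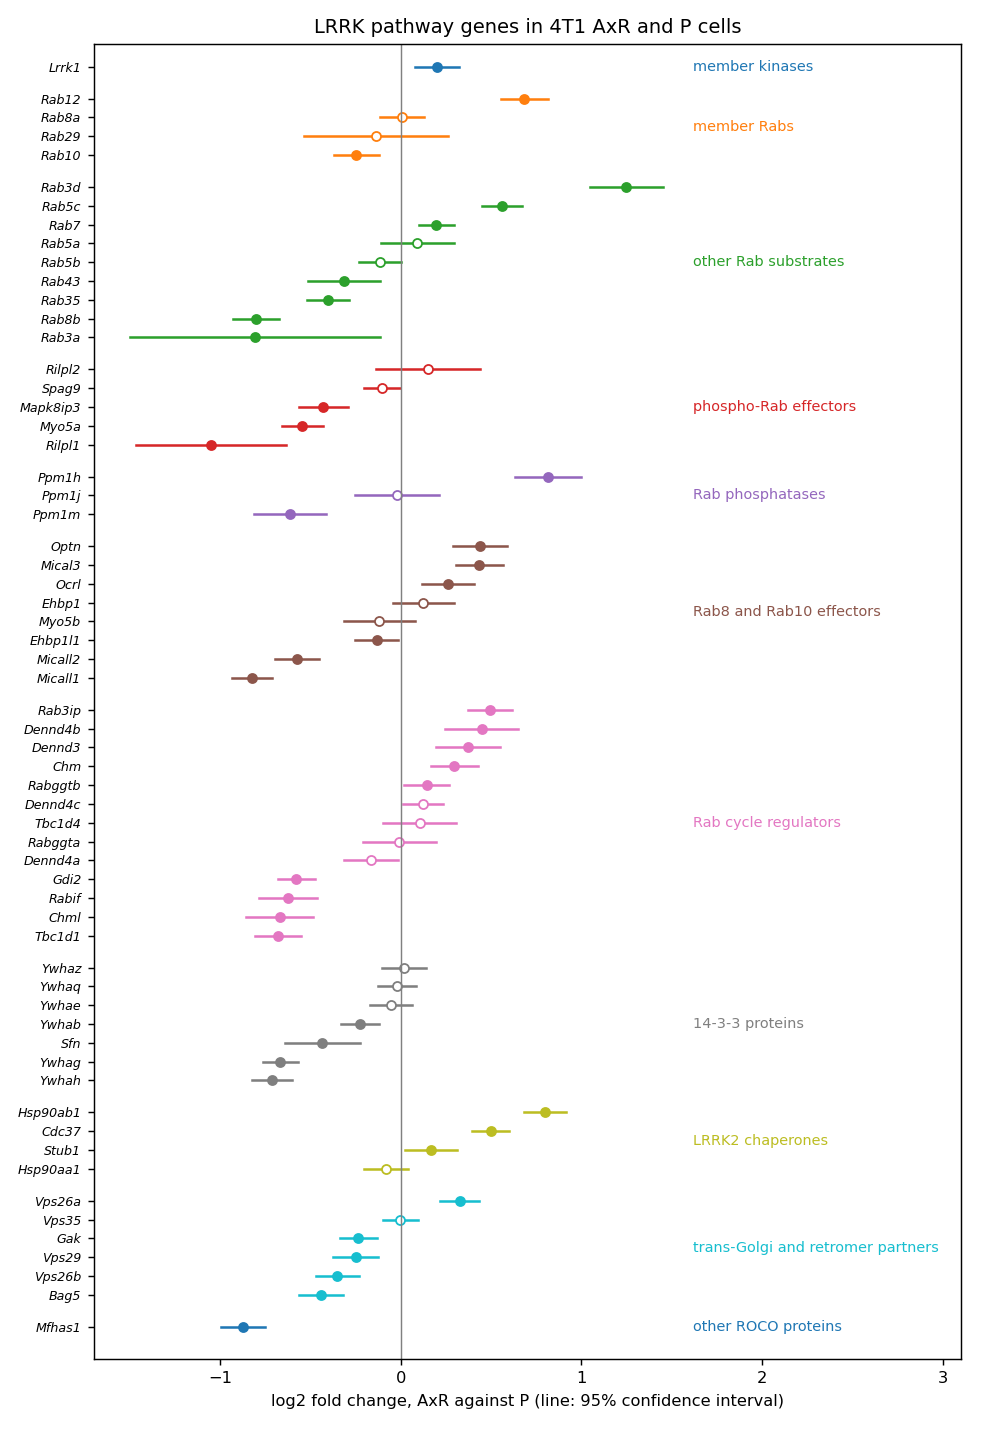
Log2 fold change in AxR against P (horizontal axis) with its 95% confidence interval for the tested genes of the lists, sorted within lists; filled points passed an adjusted p of 0.05 in edgeR's quasi-likelihood test. Lrrk2 and Dapk1, at or near 0 counts in AxR, and 1 gene of the Rab cycle are not drawn. Rab12 stands highest of the 4 member Rabs and Rab10 lowest, and no phospho-Rab effector or 14-3-3 gene has a filled point above 0. In these 2 lists 60.0% and 57.1% passed, near the 63.5% of all genes that passed in either direction. Of all genes, 30.8% were lower in AxR.

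Effectors of Rab8 and Rab10 in their usual state went both ways: 3 rose, 3 fell and 2 did not pass, of 8 tested among 9. The share that passed was 75.0%, beside 63.5% of all genes. The adaptor genes Micall1 and Micall2, which link Rabs to membrane tubules and junctions, fell by 0.82 and 0.58 on the log2 scale (adjusted p = 2.837e-09 and 5.081e-07 by edgeR). Optn, an autophagy receptor that binds Rab8, and Mical3, a redox enzyme of vesicle docking, each rose by 0.44 (adjusted p = 6.158e-05 and 1.753e-05 by edgeR).

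Genes of the Rab cycle, which load, move and inactivate Rabs, also split: of 14 tested among 15, 5 rose, 5 fell and 4 did not pass. The share that passed was 71.4%, beside 63.5% of all genes. Rab3ip, which encodes the exchange factor Rabin8 that activates Rab8, rose from 41.7 ± 0.788 to 58.8 ± 0.473 CPM (log2 fold change 0.49, SE 0.057, adjusted p = 2.408e-06 by edgeR), and Dennd4b, an exchange factor of the DENN group, rose by 0.45 (SE 0.095, adjusted p = 0.000713 by edgeR). Tbc1d1, a GTPase-activating protein for Rab8 and Rab10, fell from 137 ± 8.82 to 85.1 ± 3.90 CPM (-0.68, SE 0.059, adjusted p = 1.106e-07 by edgeR). Chml, an escort protein for newly made Rabs, had a log2 fold change of -0.67 (SE 0.086, adjusted p = 1.297e-05 by edgeR). Gdi2, which takes inactive Rabs off membranes, fell from 541 ± 16.5 to 362 ± 13.1 CPM (-0.58, SE 0.048, adjusted p = 5.645e-08 by edgeR), and is named after its values were seen.

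Partners of LRRK2 itself changed in both directions as well. Of the 7 genes for 14-3-3 proteins, which bind phosphorylated LRRK2, 4 fell and 3 did not pass. The 57.1% that passed is near the 63.5% of all genes that passed in either direction, and 30.8% of all genes were lower. The lowest log2 fold changes were at Ywhah (-0.71, adjusted p = 1.342e-08 by edgeR) and Ywhag (-0.67, adjusted p = 8.065e-09 by edgeR). Of 4 chaperone genes 3 rose and 1 did not pass (75.0% passed, beside 63.5% of all genes). Among them Hsp90ab1, the constitutive cytosolic HSP90, rose from 1773 ± 47.6 to 3084 ± 217 CPM (0.80, adjusted p = 5.83e-09 by edgeR), and its kinase-specific partner Cdc37 rose from 135 ± 4.10 to 191 ± 3.20 CPM (0.50, adjusted p = 3.782e-07 by edgeR). Of 6 trans-Golgi and retromer partners, 1 rose, 4 fell and 1 did not pass (83.3% passed, beside 63.5% of all genes). The retromer subunit Vps26a rose by 0.33 on the log2 scale (adjusted p = 4.044e-05 by edgeR), while Vps26b stood at -0.35 and the co-chaperone Bag5 at -0.44 (adjusted p = 4.991e-05 and 7.255e-06 by edgeR). Vps35, the retromer subunit also linked to Parkinson disease, did not pass and had 406 ± 3.91 CPM in P and 405 ± 11.6 CPM in AxR.

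Both other ROCO genes fell. Dapk1, a death-associated kinase, had 233, 278 and 208 counts in P and 0, 2 and 0 counts in AxR. Its P level was 359 times its AxR level, with an exact 95% interval from 99.0 to 2968 that covers counting error only. Mfhas1 fell from 113 ± 4.05 to 61.4 ± 3.01 CPM (log2 fold change -0.87, SE 0.056, adjusted p = 3.896e-09 by edgeR). Lrrk1 was higher in AxR, but the 4 ROCO genes give no reading of the family. Lrrk2 was picked for its lack of AxR counts, and Dapk1 passed the filter on low counts through P. Over all genes tested, 30.8% were lower in AxR.

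Among all 59 protein-coding Rab genes, Rab10 ranked 1 in P and 2 in AxR by level per kb, with Rab7 taking its place. Rab12 moved from rank 19 to rank 12, and Rab8a and Rab29 held ranks 21 and 39 in both lines. Of the 55 Rab genes that are not members, 42 were tested, 15 rose, 17 fell and 10 did not pass, with a median log2 fold change of -0.047. That is 76.2% of those tested, beside 63.5% of all genes, of which 32.8% were higher and 30.8% lower. The 15 include Rab17, Rab19, Rab7b and Rab15, which passed the filter on low counts through AxR, where they are high. With at least 10 counts required in every library, 38 were tested, 11 rose and 17 fell. Under that filter 12337 genes were tested in all, of which 4049 rose and 3939 fell.

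Outside the LRRK lists, the 3 lowest and 3 highest log2 fold changes of the family that passed the test were as follows. Rab25, an epithelial Rab of recycling endosomes, fell from 13.1 ± 0.906 to 0.836 ± 0.193 CPM (log2 fold change -3.96, SE 0.17, adjusted p = 5.327e-11 by edgeR). Rab6b, a Golgi Rab, fell from 52.7 ± 3.26 to 13.5 ± 1.42 CPM (-1.97), and Rab32, a Rab of lysosome-related organelles, fell from 15.3 ± 1.33 to 6.68 ± 0.885 CPM (-1.20). The 3 that rose were at or near the floor in P and passed the filter on low counts through AxR, where they are high, so their counts are given without a fitted change. Rab17, an epithelial Rab of transcytosis, had 1, 8 and 6 counts in P and 68, 58 and 78 counts in AxR. Rab19 had 3, 4 and 4 counts in P and 16, 25 and 13 counts in AxR. Rab7b, a lysosomal Rab, had 1, 3 and 2 counts in P and 31, 37 and 25 counts in AxR, a ratio of 15.5 with an exact 95% interval from 6.87 to 43.4 for counting error only.

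**Figure D4:**
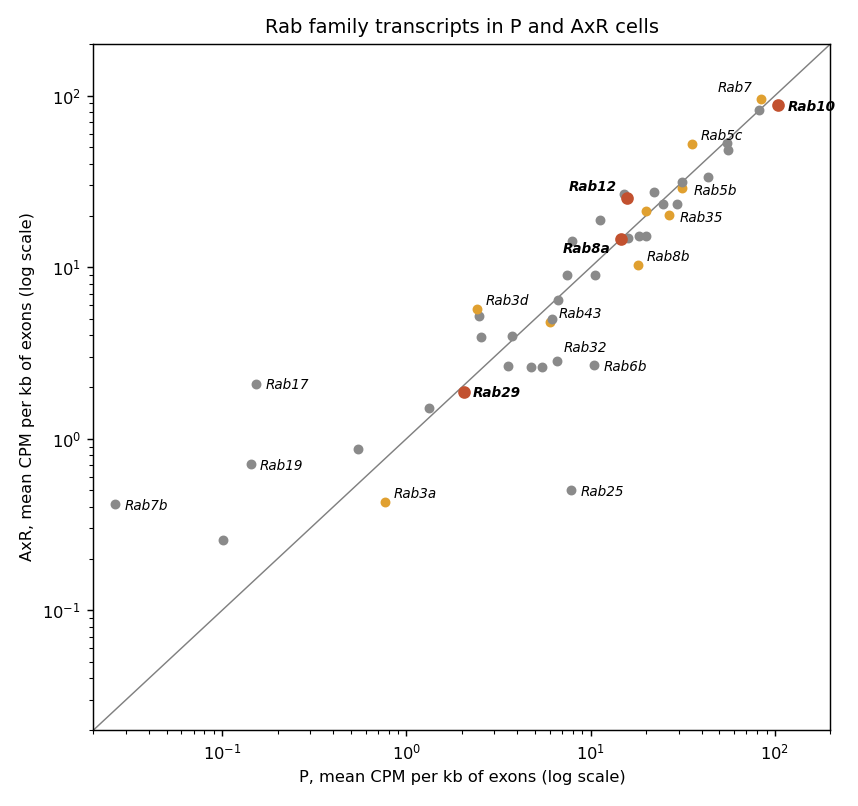
Mean level per kb of exons in P (horizontal) and AxR (vertical) for the 46 tested Rab genes, on log axes; the line marks equal levels, red points are the 4 member Rabs, orange points other Rabs of the LRRK lists and gray points the rest. Rab10 lies farthest right, just under the line, Rab12 lies above it, Rab8a and Rab29 lie close to it, and Rab25 is farthest below.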

How the data were processed

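The authors prepared stranded poly(A) libraries from 3 P and 3 AxR samples. Per the labels and methods, reads were checked with FastQC 0.11.5, aligned with STAR 2.6.0a to GRCm38 with GENCODE M16, and quantified with RSEM 1.3.1. The deposited values are RSEM estimated counts per gene, before any filter or scaling; reads shared between genes are divided by likelihood, so values need not be whole. They were rounded here. Genes were kept by filterByExpr, scaled by upper quartile and tested with edgeR 4.0.16 (quasi-likelihood F test, robust, line as the only term; R 4.3.3), and p-values were adjusted by Benjamini-Hochberg over 13550 genes at a threshold of 0.05. Standard errors are the log2 fold change over the root of F. CPM use the scaled library size, and single-value permutation tests log2(CPM + 0.5). Depth was 15495260 to 17294525 counts per library. The floor was 3 counts, or 0.171 to 0.196 CPM.

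Symbols, positions and exon lengths came from GENCODE M21 on the same build, in which 53360 of 53465 identifiers were found. Alternatives were TMM, library size only, DESeq2 1.42.0, 2 other count filters, a replicate block, each library left out, and a fold threshold. The members and lists were chosen with earlier results of these data known. Named were the members, per list the 2 highest and 2 lowest log2 fold changes past the threshold and genes at the floor in 1 line, and, from the Rab family outside the lists, the 3 highest and 3 lowest. Also named were protein-coding genes within 1 Mb of Lrrk2, the 5 genes most like it and the 3 nearest to its rule. Rab7, Gdi2, Mapk8ip3, Ppm1j, Vps35 and Rab15 are named outside these rules. The Rab family was read as Rab, a number and at most 2 letters, without the regulators Rab3ip and Rab5if. No library was left out, and 1 gene of the Rab cycle list is counted but not reported here.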

Additional observations from a re-analysis of the deposited data

How the results depend on the processing

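Of 60 log2 fold changes of members recomputed under alternatives, 54 kept their direction and their side of the threshold. Of 78 recomputed counts of genes, 72 stayed within 1.5 times the reported count, and the 8 recomputed levels of Lrrk2 in P moved by less than 1 SD. Lrrk1 ranged from 0.16 to 0.25 on the log2 scale, Rab10 from -0.31 to -0.20, Rab12 from 0.66 to 0.74 and Rab29 from -0.20 to -0.023, and Lrrk2 in P from 30.7 to 33.1 CPM. Rab8a changed sign, never past the threshold (edgeR or DESeq2, adjusted p from 0.526 to 1.0): its log2 fold change was -0.0074 with TMM, -0.0176 with library size only and -0.0084 with DESeq2, and -0.0205 to 0.047 when 1 library was left out, being below 0 without P replicate 1 (-0.0205), without P replicate 3 (-0.0039) and without AxR replicate 1 (-0.0146). With a log2 fold change of 1 or more in size also required, 1083 genes were higher and 640 lower, as were 1 and 2 pathway genes and 6 and 4 Rab family genes. This threshold is stricter by construction.

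The replicate numbers did not pair the libraries (correlations of same-numbered deviations from -0.053 to -0.015). The replicate block changed no call among the members and kept every count within 1.5 times (4304 genes higher and 4023 lower). With the replicate block, Lrrk1 stood at 0.20 on the log2 scale and Rab12 at 0.68. Depth limits Rab29, at 39 to 60 counts per library, and the bound on Lrrk2.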
